A study of Oryza sativa with 12 samples.

Results

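Developing grains of *RGB1Ri-5* and of its wildtype background *WYJ8* were compared at 5 days after flowering (DAF), the earlier of 2 sampled stages. All libraries carrying the label of this stage were used, 3 of each genotype and 6 of the 12 libraries in all. *WYJ8* is the rice cultivar Wuyujing 8 and carries no transgene. *RGB1Ri-5* is 1 transgenic line of it in which a hairpin RNA against *RGB1*, the β subunit of the heterotrimeric G protein, is driven by the maize ubiquitin promoter, so the hairpin is not limited to the grain. Plants of both genotypes were grown in the field without further treatment, and grains from many labelled panicles were pooled for sampling. The labels call the tissue grain, and the study uses both grain and caryopsis for it. Whether the hull was removed is not stated in the sources used here. Nothing in the labels says whether libraries came from separate plants or fields, so p-values measure only the spread between these libraries. Expression was given as FPKM, the number of sequenced fragments relative to transcript length and to all mapped fragments.

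A rice caryopsis a few days after flowering holds tissues of different origin. The endosperm, which arises from fertilisation, turns from a syncytium into cells and begins to store starch and protein, with the aleurone as its outer layer. Around it lie maternal tissues, the nucellus, the seed coat and the pericarp, and the nucellus is broken down as the endosperm grows. MADS-box proteins set the identity of floral organs and ovules, and some stay active in the seed coat. Auxin response factors (ARFs) bind auxin-responsive promoters, and *OsNF-YB1* is a nuclear factor Y subunit of the endosperm known for its role in grain filling. Grain tissues were not sampled separately, so fewer cells of a type and less RNA per cell cannot be told apart.

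Gene names were available for 127 factors that the study lists as predicted to bind the promoter of *OsYUC11*, an auxin biosynthesis gene, and for the reference gene *Ubq*. The factors correspond to 128 genes. Any FPKM value was found for 126 of them, and 111 had a mean of at least 1 FPKM at 5 DAF. Names and numbers (*ARF1*, *NFYB3*) follow that list. The study reports a larger number of putative factors than could be named here. It singled out *OsNF-YB1* and, under its locus number, *DREB2C*, among others. It describes them as co-expressed with *OsYUC11* and downregulated in the *RGB1Ri* line at 5 and 10 DAF. That choice drew on the study's own sequencing, which is used here, so the values of these genes below do not replicate it. Genes of starch synthesis, storage proteins, cell walls and *RGB1* itself were not analysed here, because the tables used do not give their identifiers, and the knock-down could not be checked in these libraries.

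The best-scoring matches that the list assigns to some of the factors called up- or downregulated below are short. They are shown because they group those factors by the letters they are predicted to bind, with capitals for the core of each match as the list writes it. Matches of the called factors *NAC68*, *ROC7*, *Os01g0693400* and LOC_Os05g50700 are not shown.
NFYB1, plus strand: CCAAT
NFYB1, minus strand: ATTGG
MADS29, MADS21, MADS58 and MADS2: tttttTTTTGg
ARF1, ARF24, ARF3, ARF22 and ARF6: gAGACA
ARF6, further match: gtTGTCGgg
PCF6: GGGCC
DREB2C: cCACCGaaa
SPL10: aataaTGTACttaata
The 4 MADS-box genes had 1 sequence in common, and 3 of them were downregulated and 1 was upregulated in *RGB1Ri-5*. The 5 ARFs likewise shared gAGACA with calls in both directions. Whether the list gives the same match to whole families was not tested. A match by itself is a description of the promoter and not a bound site. For *OsNF-YB1* the study also reports binding to this promoter in vitro, in a mobility shift assay.

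Differential expression was taken as an adjusted p-value under 0.05 (limma, Benjamini-Hochberg over all tested genes) together with a log2(FPKM + 1) difference of 1 or more, up or down. Of the 21843 tested genes, 2475 (11.3%) were upregulated and 2128 (9.74%) were downregulated in *RGB1Ri-5*. Changes of at least 8-fold were found in 584 upregulated and 326 downregulated genes. Over all tested genes the log2 change had a median of -0.06. Replicates correlated across genes with r from 0.974 to 0.981 in *WYJ8* and from 0.970 to 0.987 in *RGB1Ri-5* (Pearson, log2 values), and genes are not independent replicates. Between 29051 and 29576 genes were listed per library, and their FPKM summed to between 554934 and 585652. The reads behind a value are unknown, so no counting error can be given.

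**Figure D1:**
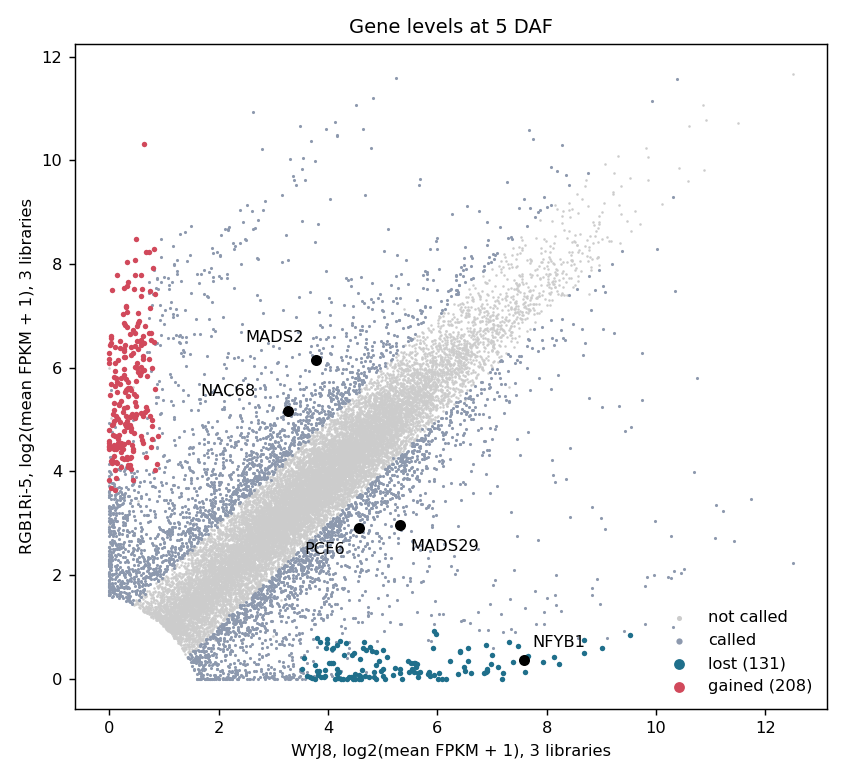
Mean level of each tested gene in *WYJ8* (horizontal axis) and *RGB1Ri-5* (vertical axis) at 5 DAF, as log2 of mean FPKM plus 1 over 3 libraries each. The 131 lost genes lie along the horizontal axis with *NFYB1* among them, the 208 gained genes lie along the vertical axis, and called genes are drawn darker than genes that were not called.

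The endosperm factor *OsNF-YB1* was almost absent from *RGB1Ri-5* at 5 DAF. *NFYB1* (LOC_Os02g49410, chromosome 2 from 30191470 to 30192489, Release 7 of the MSU annotation) was at 148, 133 and 294 FPKM in the *WYJ8* libraries and at 0.155, 0.607 and 0.0754 FPKM in the *RGB1Ri-5* libraries. Every *WYJ8* library was far above every *RGB1Ri-5* library, with replicate 3 of *WYJ8* well above the other two. The means were 192 ± 89.0 and 0.279 ± 0.287 FPKM (SD, n = 3), a log2 change of -7.16 (standard error 0.68, limma adjusted p = 6.75e-06). With so little signal in *RGB1Ri-5*, *NFYB1* passed the filter of a mean of 1 FPKM only through *WYJ8*. *NFYB1* was the only member of the endosperm list with a name at hand.
The other 3 nuclear factor Y subunits with names gave values close to each other. *NFYB2* (LOC_Os01g61810) was at 10.2 ± 1.27 FPKM in *WYJ8* and 9.11 ± 0.805 FPKM in *RGB1Ri-5* (SD, n = 3), *NFYB3* (LOC_Os05g38820) at 4.78 ± 0.473 and 4.03 ± 1.03, and *NFYB4* (LOC_Os05g49780) at 4.62 ± 1.81 and 3.77 ± 0.128. The descriptions in the list number the latter pair of genes the other way round. On the log2 scale they changed by -0.22 to -0.14, and no adjusted p was under 0.306 (limma). The ranges of the genotypes overlapped for all 3 genes.
*DREB2C* (LOC_Os08g45110, chromosome 8 from 28321215 to 28322394), a dehydration-responsive element-binding protein of the ERF family, had the same pattern at a lower level. It was at 7.31, 4.32 and 11.4 FPKM in *WYJ8* and at 0.0505, 0.136 and 0.153 FPKM in *RGB1Ri-5*. Replicate 3 of *WYJ8* was again the highest library and the genotypes did not overlap, with a log2 change of -2.88 (standard error 0.50, limma adjusted p = 0.000504). The pseudocount lowers the fold of genes at this level, and with a pseudocount of 0.1 the log2 change of *DREB2C* was -5.12. Of 14 DREB genes 5 were tested, and the other 4 were not called, so 20% were downregulated beside 9.74% of all tested genes. *DREB2C* passed the filter of a mean of 1 FPKM only through *WYJ8*, so its test and this share depend on that genotype. *DREB1B*, at 0.859, 0.699 and 0.818 FPKM in *WYJ8*, was at 11.8, 1.59 and 1.48 FPKM in *RGB1Ri-5*, so a single library carried its higher mean (limma adjusted p = 0.0543).

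Of the 5 MADS-box genes in the ovule and seed coat list, 3 were downregulated, none was upregulated and 2 did not pass the test, beside 9.74% of all tested genes downregulated. The list also holds the C-class genes *MADS58*, which was downregulated, and *MADS3*, which was not. Of its other members *MADS29* and *MADS21* were downregulated and *MADS13* was not. The median log2 change of the list was -1.10, the value of *MADS58*, compared with -0.06 for all tested genes. *MADS29* (LOC_Os02g07430, chromosome 2 from 3833128 to 3837135), a B-sister gene needed for the breakdown of maternal tissue in the young rice seed, was at 39.1, 44.2 and 33.0 FPKM in *WYJ8* and at 6.48, 6.41 and 7.37 FPKM in *RGB1Ri-5*. The *RGB1Ri-5* libraries lay close together and all below the *WYJ8* libraries, by 5.74-fold in the means (log2 change -2.35, standard error 0.16, limma adjusted p = 6.70e-07).
*MADS21* (LOC_Os01g66290, chromosome 1 from 38500879 to 38505127), a relative of the ovule identity gene *MADS13*, was at 68.1, 72.3 and 62.9 FPKM in *WYJ8* and at 22.4, 25.8 and 27.1 FPKM in *RGB1Ri-5*. The groups did not overlap, and the log2 change was -1.40 (standard error 0.13, limma adjusted p = 6.45e-06). *MADS58* (LOC_Os05g11414, chromosome 5 from 6447182 to 6458100), a C-class gene of carpel development, was at 69.4, 70.7 and 49.6 FPKM against 26.8, 29.7 and 29.6 FPKM (log2 change -1.10, standard error 0.19, limma adjusted p = 0.000489). Replicate 3 of *WYJ8* was the lowest wildtype library for both genes and still lay above every *RGB1Ri-5* library.
The other C-class gene, *MADS3*, and the ovule identity gene *MADS13* stayed near the wildtype level. *MADS3*, the C-class gene of stamens, was at 53.2 ± 7.44 FPKM in *WYJ8* and 53.4 ± 5.08 FPKM in *RGB1Ri-5* (SD, n = 3). *MADS13*, which sets ovule identity, was at 81.5 ± 9.07 and 69.3 ± 4.05 FPKM, and its log2 fold change of -0.23 (standard error 0.18, limma adjusted p = 0.306) did not pass the test. The *MADS3* libraries of the genotypes overlapped and those of *MADS13* did not, with 72.6 FPKM in the lowest *WYJ8* library and 71.9 FPKM in the highest *RGB1Ri-5* library.

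Of the 9 floral organ MADS-box genes, 1 was upregulated, none was downregulated and 8 did not pass both limits, beside 11.3% of all tested genes upregulated. The median log2 change was 0.66. *MADS2* (LOC_Os01g66030, chromosome 1 from 38319059 to 38324074), a B-class gene of the lodicules, was at 11.8, 14.8 and 11.7 FPKM in *WYJ8* and at 69.1, 63.2 and 78.0 FPKM in *RGB1Ri-5*. Every *RGB1Ri-5* library was above 60 FPKM and no *WYJ8* library reached 15 FPKM, a 5.48-fold difference of the means (log2 change 2.37, standard error 0.21, limma adjusted p = 4.12e-06).
The remaining members differed by less than the fold limit. *MADS6*, an AGL6-like gene of floral meristems and organs, was at 42.9, 55.1 and 37.5 FPKM in *WYJ8* and at 76.9, 91.5 and 86.6 FPKM in *RGB1Ri-5* (log2 change 0.91, standard error 0.26, limma adjusted p = 0.0129). *MADS15*, an APETALA1-like gene, was at 82.7, 117 and 82.3 FPKM against 160, 178 and 151 FPKM (log2 change 0.81, standard error 0.23, limma adjusted p = 0.0131). Neither gene's libraries overlapped between genotypes, and replicate 2 of *WYJ8* was the wildtype library nearest to *RGB1Ri-5* in both.
*MADS34*, *MADS17* and *MADS14* had log2 fold changes of 0.91, 0.66 and 0.46 with adjusted p of 0.00849, 0.0310 and 0.0453 (limma), and *MADS5* one of 0.26 (adjusted p = 0.450). The genes *MADS7* and *MADS8*, the highest of the list in *WYJ8*, had values in the other direction. *MADS7* was at 181 ± 32.7 FPKM in *WYJ8* and 123 ± 9.47 FPKM in *RGB1Ri-5*, and *MADS8* at 224 ± 29.3 and 161 ± 13.4 FPKM (SD, n = 3), with log2 fold changes of -0.54 and -0.47. The 6 positive members without overlap and these 2 negative members stood beside 27.4% of all tested genes with every *RGB1Ri-5* library above every *WYJ8* library and 34.1% with every one below.
The count of 1 upregulated floral gene depended on the fold limit. It was 3 without replicate 2 of *WYJ8*, when *MADS6* (log2 fold change 1.06) and *MADS34* (1.11) passed, and 6 with no fold limit. A further 4 MADS-box genes of the list, among them *MADS50* and *MADS56*, had log2 fold changes between 0.02 and 0.83 and none was called.

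**Figure D2:**
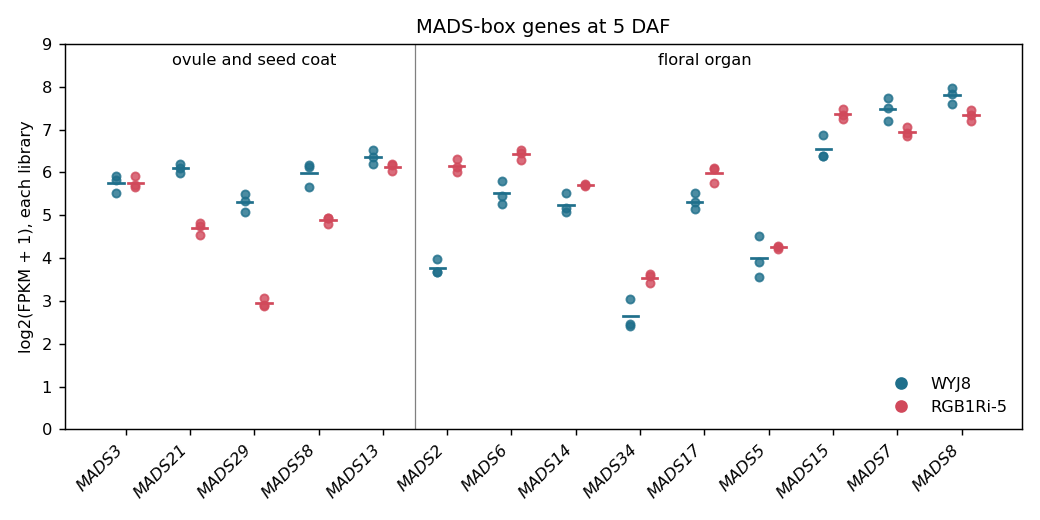
Level of 14 MADS-box genes in each of the 6 libraries at 5 DAF, as log2 of FPKM plus 1, with *WYJ8* and *RGB1Ri-5* side by side, 1 point per library and a bar at the mean of the 3 points. *MADS29*, *MADS21* and *MADS58* lay lower in *RGB1Ri-5*, *MADS2* lay 2.37 higher on this scale, and *MADS3* overlapped.

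Among 24 ARFs 23 were tested, of which 4 were downregulated, 1 was upregulated and 18 did not pass both limits. The shares of 17.4% and 4.35% stood beside 9.74% of all tested genes downregulated and 11.3% upregulated. Their median log2 change was -0.47, and 16 of the 23 had a negative value, compared with 11799 of the 21843 tested genes. *ARF1* (LOC_Os01g13520, chromosome 1 from 7546884 to 7551996) was at 34.2, 32.5 and 29.4 FPKM in *WYJ8* and at 9.40, 10.2 and 9.81 FPKM in *RGB1Ri-5*. All *RGB1Ri-5* libraries were near 10 FPKM and well below the wildtype (log2 change -1.61, standard error 0.13, limma adjusted p = 2.12e-06).
*ARF24* (LOC_Os12g29520, chromosome 12 from 17571536 to 17577896), the ARF with the highest *WYJ8* level in the list, was at 113, 91.3 and 93.3 FPKM in *WYJ8* and at 36.3, 44.2 and 42.4 FPKM in *RGB1Ri-5* (log2 change -1.25, standard error 0.13, limma adjusted p = 9.95e-06). *ARF3* (LOC_Os01g54990) was at 22.9 ± 1.83 and 10.4 ± 0.978 FPKM, and *ARF22* (LOC_Os10g33940) at 32.9 ± 4.21 and 15.5 ± 1.27 FPKM (SD, n = 3). None of these genes overlapped between genotypes. The last pair lay at the fold limit, with log2 fold changes of -1.07 and -1.04 (adjusted p = 2.42e-05 and 2.87e-05, limma), and the values came to -0.998 for *ARF3* without replicate 1 of *RGB1Ri-5* and to -0.95 and -0.97 for *ARF22* without replicate 1 of *WYJ8* or replicate 2 of *RGB1Ri-5*.
*ARF6* (LOC_Os02g06910, chromosome 2 from 3486812 to 3492950) went the other way. It was at 11.4, 13.2 and 12.2 FPKM in *WYJ8* and at 30.9, 36.3 and 34.4 FPKM in *RGB1Ri-5*, with no overlap and a log2 change of 1.39 (standard error 0.23, limma adjusted p = 0.000423). Among the ARFs with the highest means, *ARF4* had a log2 change of -0.39 (adjusted p = 0.0270), *ARF23* of -0.86 (adjusted p = 0.000786) and *ARF12* of 0.52 (adjusted p = 0.126). With no fold limit 12 ARFs were lower and 3 higher, and after median-of-ratios rescaling 2 remained past both limits among the lower ones, *ARF3* being at -0.98 and *ARF22* at -0.94.

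**Figure D3:**
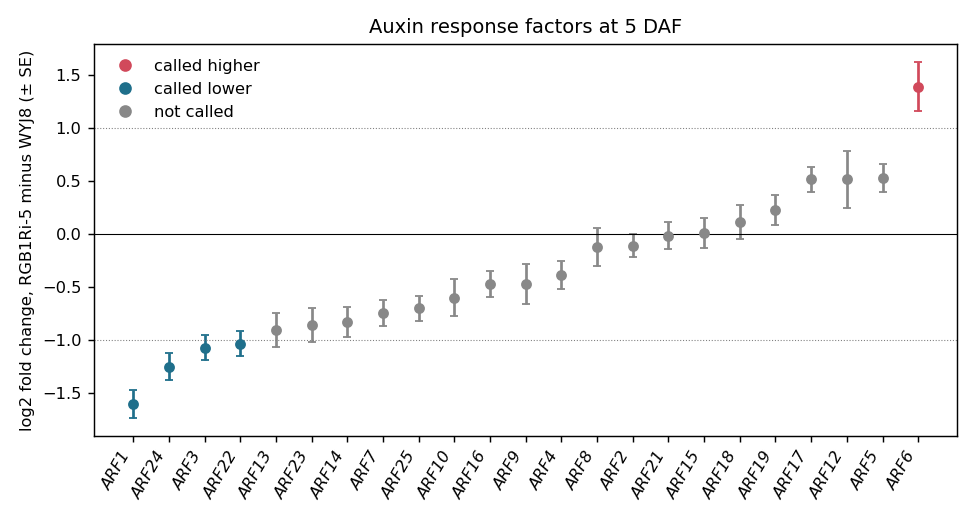
Log2 fold change of the 23 tested ARFs at 5 DAF, *RGB1Ri-5* minus *WYJ8*, with the standard error of the limma fit as bars and dotted lines at the fold limit of 1 in either direction. *ARF1* is the lowest at -1.61 and *ARF6* the highest at 1.39.

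The 6 ROC genes, homeobox factors of the HD-ZIP class IV group known from the outermost cell layer, all had negative log2 fold changes, from -1.23 to -0.32. All were tested, 1 (16.7%) was downregulated and none was upregulated, beside 9.74% and 11.3% of all tested genes. *ROC7* (LOC_Os08g04190, chromosome 8 from 2034453 to 2037504) was at 14.9, 13.8 and 15.9 FPKM in *WYJ8* and at 6.199, 6.85 and 4.45 FPKM in *RGB1Ri-5* (log2 change -1.23, standard error 0.14, limma adjusted p = 3.20e-05). *ROC3* and *ROC4* had log2 fold changes of -0.84 each (adjusted p = 0.00285 and 0.000255), *ROC1* of -0.55, *ROC2* of -0.33 and *ROC5* of -0.32. For all 6 genes every *RGB1Ri-5* library lay below every *WYJ8* library, beside 34.1% of all tested genes, and the sign was the same under every rescaling.
Of the 6 PCF genes, TCP factors of organ growth, 1 (16.7%) was downregulated, beside 9.74% of all tested genes. *PCF6* (LOC_Os03g57190, chromosome 3 from 32614059 to 32618299) was at 24.0, 21.1 and 23.1 FPKM in *WYJ8* and at 6.62, 6.78 and 5.96 FPKM in *RGB1Ri-5*. The libraries of each genotype lay close together, and the log2 change was -1.67 (standard error 0.21, limma adjusted p = 4.45e-05). The other 5 PCF genes had overlapping libraries and log2 fold changes no lower than -0.28 and no higher than 0.24.
None of the 21 tested HOX genes, homeobox leucine zipper factors of the other HD-ZIP classes, passed both limits in limma, beside 11.3% of all tested genes upregulated and 9.74% downregulated, and 11 of them had an unadjusted p under 0.05. Their log2 fold changes ran from -0.83 to 0.72 with a median of 0.08.

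*SPL10* (LOC_Os06g44860, chromosome 6 from 27114985 to 27117417), a squamosa promoter-binding-like factor, was expressed at a low level in *RGB1Ri-5* and was nearly absent from *WYJ8*. It was at 2.999, 4.07 and 3.67 FPKM in *RGB1Ri-5*, at 0.0272 and 0.0261 FPKM in replicates 2 and 3 of *WYJ8*, and not listed in replicate 1. The log2 change was 2.16 (standard error 0.24, limma adjusted p = 2.21e-05), and with a pseudocount of 0.1 the log2 change of *SPL10* was 4.96. *SPL10* passed the filter of a mean of 1 FPKM only through *RGB1Ri-5*, so its test and the SPL share depend on that genotype. The other 15 tested SPL genes were not called, so 6.25% were upregulated beside 11.3% of all tested genes. *SPL2*, at a log2 change of 0.99, lay just under the fold limit, and 2 SPL genes were called without replicate 2 of *WYJ8*, replicate 1 of *RGB1Ri-5* or replicate 3 of *RGB1Ri-5*.
*NAC68* (LOC_Os01g60020, chromosome 1 from 34692829 to 34694391), of the NAC family, was at 6.27, 12.8 and 6.70 FPKM in *WYJ8* and at 35.7, 39.2 and 29.4 FPKM in *RGB1Ri-5*. Replicate 2 of *WYJ8* was the highest wildtype library, yet the genotypes stayed apart (log2 change 1.95, standard error 0.35, limma adjusted p = 0.000658). The AP2/ERF and B3 domain gene *Os01g0693400* (LOC_Os01g49830) was at 12.7, 17.03 and 22.3 FPKM against 35.9, 42.5 and 37.5 FPKM (log2 change 1.14, standard error 0.17, limma adjusted p = 0.000198). Without replicate 1 of *WYJ8* its value was 0.95, under the fold limit.
LOC_Os05g50700, listed as a WRKY factor, was at 0.484, 1.00 and 0.773 FPKM in *WYJ8* and at 2.93, 3.15 and 3.32 FPKM in *RGB1Ri-5* (log2 change 1.25, standard error 0.24, limma adjusted p = 0.00101), and with a pseudocount of 0.1 the log2 change of LOC_Os05g50700 was 1.97. This gene, too, passed the filter of a mean of 1 FPKM only through *RGB1Ri-5*. Over all 111 tested factors, 6 (5.41%) were upregulated and 11 (9.91%) downregulated, beside 11.3% and 9.74% of all tested genes, so the share of downregulated factors was near the background. The median log2 fold change of the factors was 0.01.
*Ubq* (LOC_Os03g13170), the reference gene of the study's quantitative PCR, was at 403, 511 and 424 FPKM in *WYJ8* and at 204, 258 and 245 FPKM in *RGB1Ri-5*. The genotypes did not overlap, and the *RGB1Ri-5* mean was 0.528 of the *WYJ8* mean (log2 change -0.92, standard error 0.14, limma adjusted p = 0.000221), under the fold limit. It was past the limit after quantile normalization, at -1.11.

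**Figure D4:**
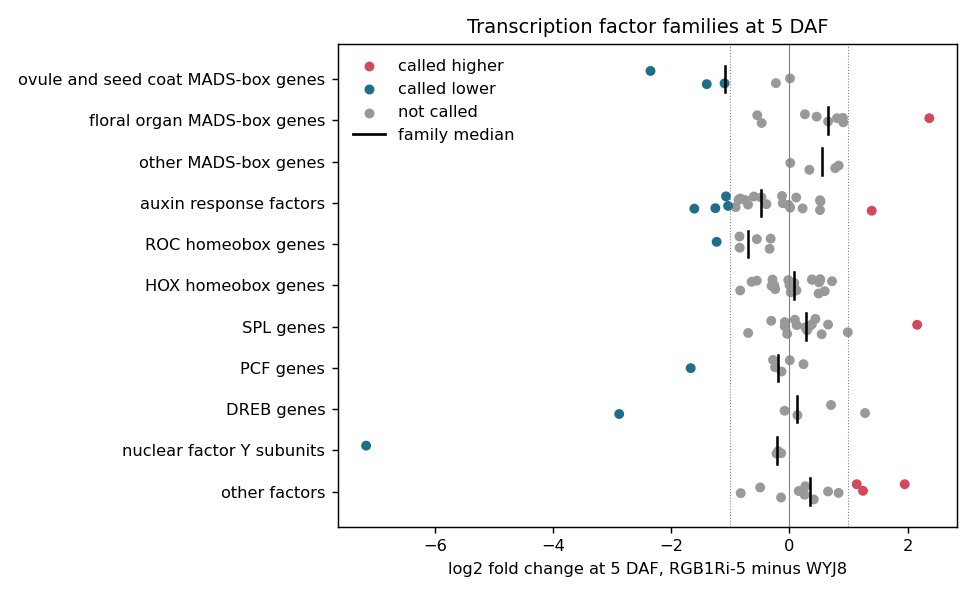
Log2 fold change at 5 DAF, *RGB1Ri-5* minus *WYJ8*, of every tested factor by family, 1 point per gene, coloured by call, with a black bar at the family median and dotted lines at the fold limit. The ovule and seed coat MADS-box genes (median -1.10), the ROC genes (-0.70) and the ARFs (-0.47) lay to the left, and the floral organ MADS-box genes (0.66) to the right.

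Some genes were switched rather than shifted between the genotypes. A gene was described as lost when every *WYJ8* library was at 10 FPKM or more and every *RGB1Ri-5* library under 1 FPKM at 5 DAF, and as gained in the reverse case. There were 131 lost and 208 gained genes, all of them past both limits, as the definition nearly fixes. Among the named factors *NFYB1* was lost and none was gained. Only 16 of the lost genes were unlisted in every *RGB1Ri-5* library and 10 of the gained genes in every *WYJ8* library, so most left a trace of signal. With 20 FPKM as the upper threshold there were 67 and 122.
Lost genes had a median of 31.1 FPKM in *WYJ8* and gained genes one of 43.0 FPKM in *RGB1Ri-5*, and 25 and 37 of them exceeded a mean of 100 FPKM. In *WYJ8* the lost genes made up 1.69%, 1.28% and 1.89% of a library's FPKM. In *RGB1Ri-5* the gained genes made up 2.96%, 2.21% and 2.47%. Replicate 2 was the lowest *RGB1Ri-5* library for 136 of the 208 gained genes.
The highest lost gene, LOC_Os05g34510 (chromosome 5 from 20457200 to 20457856), was at 1002, 632 and 577 FPKM in *WYJ8* and at 0.985, 0.825 and 0.563 FPKM in *RGB1Ri-5*. LOC_Os07g41290 (chromosome 7 from 24744454 to 24745346) was at 555, 455 and 534 FPKM against 0.369, 0.754 and 0.399 FPKM. Both are the highest of the lost set in *WYJ8*, and neither has a name in the tables used here.
The highest gained gene, LOC_Os05g33150 (chromosome 5 from 19445897 to 19447492), was at 0.442, 0.746 and 0.478 FPKM in *WYJ8* and at 1185, 1805 and 837 FPKM in *RGB1Ri-5*. LOC_Os10g42020 (chromosome 10 from 22587835 to 22592132) was at 0.178, 0.639 and 0.393 FPKM against 367, 308 and 394 FPKM. These 4 genes were picked for their level after the values were seen.

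Of the 208 gained genes, 68 had another gained gene within 100 kb, and of the 131 lost genes 31 had another lost gene within that distance. Stretches of at least 3 numbered 7 for gained and 4 for lost genes. The counts of called genes in a stretch include the gained or lost genes that define it, so they are partly fixed. Over all tested genes 11.3% were upregulated and 9.74% downregulated. The longest run, on chromosome 9 from 14258394 to 14344912, held 11 gained genes, and all 15 genes tested in it were upregulated. A stretch of chromosome 11 from 4634033 to 4806780 held 7 gained genes and 10 upregulated genes among 15 tested, and one of chromosome 6 from 27303495 to 27378472 held 5 and 9 among 11. In a further pair of stretches most tested genes were not called. On chromosome 2 from 33931817 to 34082484 lay 4 gained genes, and 5 of 22 tested genes were upregulated and 1 downregulated. On chromosome 5 from 23598186 to 23691121 lay 3, and 3 of 13 were upregulated and 1 downregulated. In the last 2 stretches, each with 3 gained genes, 4 of 4 and 3 of 4 tested genes were upregulated.
Of the lost genes, 4 lay on chromosome 2 from 3909436 to 3949211. They were the only 4 genes tested there, so their downregulation followed from the definition. A stretch of chromosome 11 from 18288356 to 18378851 held 3 lost genes, with 5 of 7 tested genes downregulated and 1 upregulated, and in the other 2 stretches all 4 tested genes were downregulated. Each chromosome held at least 7 lost and 6 gained genes. Whether neighbours are copies of each other that share reads was not tested, and neither was how often other genes have such neighbours.

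No library of the later stage entered the definition of either set, although the tested genes were filtered by their level at 5 DAF. Of the lost genes, 94 were at 10 FPKM or more in every *WYJ8* library at 10 DAF and 60 in every *RGB1Ri-5* library. Their summed FPKM in *RGB1Ri-5* was 27.8, 33.3 and 27.2 at 5 DAF and 3865, 9996 and 1982 at 10 DAF, compared with 22065 to 24234 in *WYJ8* at 10 DAF. *RGB1Ri-5* replicates differed from each other at this stage, and replicate 2 was the highest of them for 112 of the 131 genes. *NFYB1* had the same order, at 17.5, 110 and 8.04 FPKM in *RGB1Ri-5* against 331, 320 and 252 FPKM in *WYJ8*.
At 10 DAF 68 of the lost genes (51.9%) were downregulated and 21 (16.03%) upregulated in *RGB1Ri-5*, beside 2.85% and 35.7% of all tested genes. After median-of-ratios rescaling 90 were downregulated and 10 upregulated, beside 8.34% and 9.18%. At 5 DAF the same rescaling left 8.19% of all tested genes downregulated and 12.2% upregulated.
Gained genes were mostly under 1 FPKM at 10 DAF, except in replicate 3 of *RGB1Ri-5*. In *WYJ8*, 201 of the 208 were under 1 FPKM in every library, and none reached 10 FPKM in any. In *RGB1Ri-5* 9, 6 and 157 of them were at 1 FPKM or more in replicates 1, 2 and 3, so replicate 3 stood apart, and only 5 were at 10 FPKM or more in all 3. At 10 DAF 9 (4.33%) were upregulated and 1 downregulated, beside 35.7% and 2.85% of all tested genes, and after median-of-ratios rescaling 7 were upregulated and 3 downregulated, beside 9.18% and 8.34%. Genes under 1 FPKM in every library of both genotypes cannot pass the fold limit on this scale. At most 51 of the 208 were such genes, because only 51 were under 1 FPKM in every *RGB1Ri-5* library. The median of the 208 was 2.69 FPKM in replicate 3 of *RGB1Ri-5* and under 1 FPKM in replicates 1 and 2. How far low levels and the difference between replicates each account for the low shares was not tested.
LOC_Os10g42020 was among the 5 and stayed on at 612, 244 and 612 FPKM, while LOC_Os05g33150 was at 0.542, 0.545 and 1.41 FPKM. Replicate 3 of *RGB1Ri-5* at 10 DAF was thus the library with the most gained genes and the fewest lost genes at 10 FPKM or more, 20 and 60, and replicate 2 had 5 and 120.

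**Figure D5:**
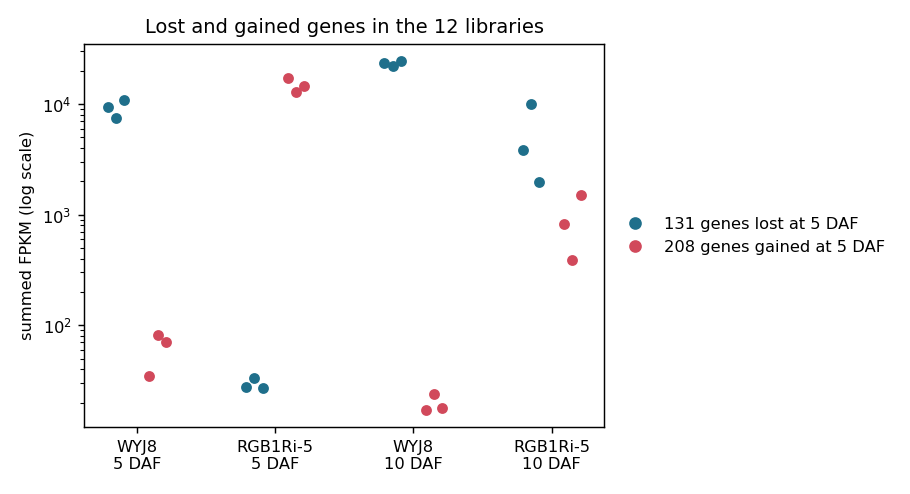
Summed FPKM (log scale) of the 131 genes lost and the 208 genes gained in *RGB1Ri-5* at 5 DAF, 1 point per library, in the 4 groups of genotype and stage. The lost genes, near 30 in *RGB1Ri-5* at 5 DAF, were between 1982 and 9996 at 10 DAF, and the gained genes were at or below 1514 in every library at 10 DAF.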

How the data were processed

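Reads were mapped by the authors with TopHat2 2.1.0 (MSU rice annotation, Release 7), and the FPKM they deposited came from Cufflinks 2.1.1, 1 value per gene and library. Counts and depths are not part of these values, so the precision of a single value is unknown, and how reads shared by similar genes were divided is not given in the sources used here. Groups came from the sample labels. A gene that a library did not list was set to 0 (510 of the tested genes, in at least 1 of the 6 libraries). Genes averaging 1 FPKM or more in the 6 libraries at 5 DAF were tested with limma 3.58.1 in R 4.3.3 on log2(FPKM + 1), with the 4 group means of all 12 libraries in a single model, an empirical Bayes trend and Benjamini-Hochberg adjustment. The called factors *NFYB1*, *DREB2C*, *SPL10* and LOC_Os05g50700 passed this filter only through the genotype where they were higher. The same holds for the lost and gained genes by their definition.
The gene groups, lists and members were chosen with earlier results of these data known. Of the 28 lists written by product name, 5 matched named genes. Family groups (ROC, HOX, SPL, PCF, DREB, other MADS-box genes, other factors) were added once the files had been read. Named were *Ubq*, *OsNF-YB1*, the MADS-box, nuclear factor Y and ROC genes, the 4 ARFs with the highest means, and every called factor, which includes the largest changes among factors averaging 10 FPKM or more without overlap. *DREB1B* and *SPL2* were added after their values were seen. Alternatives were a pseudocount of 0.1, other filters, 3 rescalings, only 6 libraries, a replicate block, no trend, unlisted genes as missing, no fold limit, other thresholds for lost and gained genes, and each 5 DAF library left out.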

Additional observations from a re-analysis of the deposited data

Results flagged for a closer look

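For some of the genes described above the genotype effect at 10 DAF differed from that at 5 DAF by at least 1 on the log2 scale, tested as the interaction in the same limma model (adjusted p over all tested genes) and past both limits also after median-of-ratios rescaling. Of the 111 tested factors, 93 had an interaction adjusted p under 0.05 as deposited, so a stage difference was common among them. FPKM at 10 DAF depend on the scaling, with 35.7% of all tested genes called higher at 10 DAF as deposited and 9.18% after rescaling, so both values are given. *MADS29*, *MADS21*, *MADS58*, *MADS2*, *PCF6*, *SPL10*, *ARF1*, *ARF22* and *Os01g0693400* were called at 5 DAF and described for it, and those 5 DAF values enter the difference.
Among the MADS-box genes, the difference was 3.59 for *MADS29* (2.52 after rescaling), 3.61 for *MADS58* (2.56), 2.53 for *MADS21* (1.45), 2.39 for *MADS7* (1.31) and 2.11 for *MADS8* (1.02). Their adjusted p (limma) lay between 5.56e-07 and 2.80e-05 as deposited, and the highest after rescaling was 0.00178, for *MADS8*. *MADS29* was at 14.4, 17.4 and 10.9 FPKM in *WYJ8* and at 38.1, 30.7 and 34.4 FPKM in *RGB1Ri-5* at 10 DAF, a log2 change of 1.24 as deposited and of 0.28, not called, after rescaling. At 10 DAF after rescaling *MADS21*, *MADS8* and *MADS7* had log2 changes of 0.15, 0.65 and 0.86 and were not called, and *MADS58* was higher by 1.56. *MADS7* and *MADS8* were not called at 5 DAF. *MADS2* had the opposite sign, -1.11 as deposited (limma adjusted p = 0.00542) and -2.08 after rescaling (limma adjusted p = 6.38e-05).
*PCF6* gave 3.29 (2.28 after rescaling), *ROC3* 3.08 (2.22), *ROC1* 2.71 (1.70), *ARF22* 2.32 (1.27), *ARF1* 2.16 (1.10) and *SPL10* 1.59 (1.46). *Os01g0693400* gave -1.10 (-2.13), with 35.9, 42.5 and 37.5 FPKM in *RGB1Ri-5* at 5 DAF and 17.3, 16.6 and 19.1 FPKM at 10 DAF.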

How the results depend on the processing

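Of 21 named genes called at 5 DAF, 18 were called under every alternative that tested them, and the exceptions were *ARF3*, *ARF22* and *Os01g0693400*. With no fold limit 4884 genes were higher and 6327 lower, with 6 floral organ MADS-box genes, 3 ARFs, 3 SPL genes, 6 other factors and 25 factors in all higher, and 12 ARFs, 6 ROC genes and 32 factors lower. Median-of-ratios rescaling gave 2 floral MADS-box genes and 2 SPL genes higher and 2 ARFs lower. A pseudocount of 0.1 gave 2 floral MADS-box genes, 2 SPL genes and 10 factors higher. With a mean of at least 5 FPKM, where *SPL10* and *DREB2C* were no longer tested, 0 SPL genes were higher and 0 DREB genes lower. Thresholds of 20 and 1 FPKM gave 67 lost and 122 gained genes, and those of 5 and 0.5 FPKM kept both counts within 1.5 times. Other than for the removed genes and the fold limit, the cause was not tested.
With each 5 DAF library left out, 2365 to 2787 genes were higher and 1989 to 2218 lower, 1 to 3 floral MADS-box genes and 1 to 2 SPL genes were higher. *MADS3*, not called, was at -0.0570 after quantile normalization, -0.0175 with equal totals and between -0.104 and 0.0914 without a library. *NFYB4*, not called, ranged from -0.332 to 0.0590. The stage difference fell below 1 for *MADS2* (-0.94, equal totals) and *Os01g0693400* (-0.97, equal totals, and -0.91 without replicate 1 of *WYJ8*).
The titles give both genotypes the same replicate numbers. Deviations of same-numbered libraries from their group means correlated at -0.26, -0.12 and -0.09, and none was positive. Differently numbered libraries were not compared, so whether the numbers mark a shared batch was not settled. With a replicate block 2468 genes were higher and 2125 lower, and no call of a named gene changed.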
